A study of Mus musculus with 3 samples.

Results

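Areg Il1a Lama3 epithelial cells are tumour cells of the mouse pancreas that carried amphiregulin (Areg) transcripts together with transcripts of interleukin-1 alpha (Il1a) or of the laminin alpha 3 chain (Lama3). Of 19576 cell barcodes in 3 tumours, 354 met the rule: 137 in tumour 1, 140 in tumour 2 and 77 in tumour 3. A unique molecular identifier (UMI) marks 1 captured transcript molecule. The rule asked for at least 500 genes and at most 20% mitochondrial UMIs, at least 1 Epcam and 1 Krt18 UMI, and at most 2 UMIs of the fibroblast genes Dcn and Col3a1 together. It also asked for fewer than 10 gastrokine UMIs (Gkn1 plus Gkn2) per 10000, at most 1 UMI each of Muc6, Muc5ac and Mmp7, at least 2 of Areg, and at least 1 of Il1a or Lama3. These cells are called Areg cells below. They were set against cells that passed every other limit but held 0 Areg UMIs, called Areg 0 cells, of which there were 247, 199 and 283 in tumours 1, 2 and 3.

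The study profiled single cells of 3 pancreatic tumours of the KPf/fC mouse strain, labelled KPC tumor cells, with 10x Genomics 3' v2 chemistry, and all 3 form a single group with no stated treatment. KPC models develop pancreatic tumours from alleles switched by a Cre active in the pancreas. The labels do not state the alleles, the promoter of the Cre, the age of the mice or whether each tumour came from its own mouse. The p-values below therefore cover these 3 tumours only. Except where tumour was not a block of the test, they measure how alike the differences within a tumour were across the tumours. Cells had been sorted as negative for CD45 (white blood cells), CD31 (endothelium) and PDGFRa (fibroblasts).

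Amphiregulin is a ligand of the epidermal growth factor (EGF) receptor. It is made as a membrane protein, is shed by the protease ADAM17, and drives receptor signalling through RAS and MAP kinase to immediate early transcription factors, while DUSP and Sprouty proteins feed back on that cascade. Interleukin-1 alpha is an alarm cytokine that epithelial cells release upon damage and that acts through Il1r1 and NF-kB. Laminin alpha 3 is a chain of laminin-332, the basement membrane protein to which basal epithelia anchor through integrins alpha 6 beta 4 and alpha 3 beta 1.

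The libraries held 5874, 6087 and 7615 barcodes, with medians of 8460.5, 9052 and 6025 UMIs. Across the tumours, 344 barcodes had a sequence that recurred in another tumour, 3 of them Areg cells, and 0 sequences were shared between Areg cells of different tumours. The summed level of 10 epithelial markers was 15732, 15445 and 14579 CPM (a gene's UMIs scaled to a common total of each group's summed UMIs) in the Areg cells of tumours 1, 2 and 3. It was 867, 579 and 335 CPM in fibroblast-gated cells, which have 0 Epcam UMIs and at least 20 of Dcn plus Col3a1. The sum over 10 fibroblast markers was 201, 155 and 150.3 CPM in Areg cells and 25998, 14647 and 25373 CPM in fibroblast-gated cells. Both sums are description only, because the gates read Epcam and Krt18 of the first list and Dcn and Col3a1 of the second. Of epithelial markers that the gates do not read, Krt8 stood at 3511, 3091 and 2599 CPM in Areg cells and Krt19 at 1977, 1855 and 1558 CPM. Of the sorted-out markers, Ptprc (CD45) had 3 UMIs, Pecam1 (CD31) 9 and Pdgfra 12 over all Areg cells. Scrublet, a doublet caller, marked 2 of the 354 cells, both in tumour 2.

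Areg cells made up 5.68% of epithelial-gate cells (the quality, Epcam, Krt18 and fibroblast limits alone) in tumour 1 (137 of 2414, exact binomial 95% interval 4.79% to 6.67%). They made up 6.65% in tumour 2 (140 of 2104, interval 5.63% to 7.80%) and 1.96% in tumour 3 (77 of 3922, interval 1.55% to 2.45%). The mean was 4.76% ± 2.47 (SD, n = 3). Tumour 3 lay below the other two, and its interval overlapped neither of theirs; the intervals cover counting error only. Tumour 3 was also the shallowest library, with a median of 7167 UMIs in epithelial-gate cells against 9365 and 8625. After each cell had been thinned to 3000 UMIs before the gate was applied, the shares were 1.15%, 0.901% and 0.332%, and tumour 3 was again lowest, though its interval (0.172% to 0.579%) overlapped that of tumour 2 (0.535% to 1.42%). Areg cells were themselves deep, with median UMIs of 14711, 12406.5 and 10360, against 9836, 8661 and 8916 in Areg 0 cells. The gene differences below are also given after matching on UMIs and after thinning, which do not fully test the part of depth. In tumour 2 all 199 Areg 0 cells summed to 1912504 UMIs, against 1935175 in the 140 Areg cells, so matched cells stayed shallower there. The thinned sums kept the cells that the gate had chosen at full depth.

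**Figure D1:**
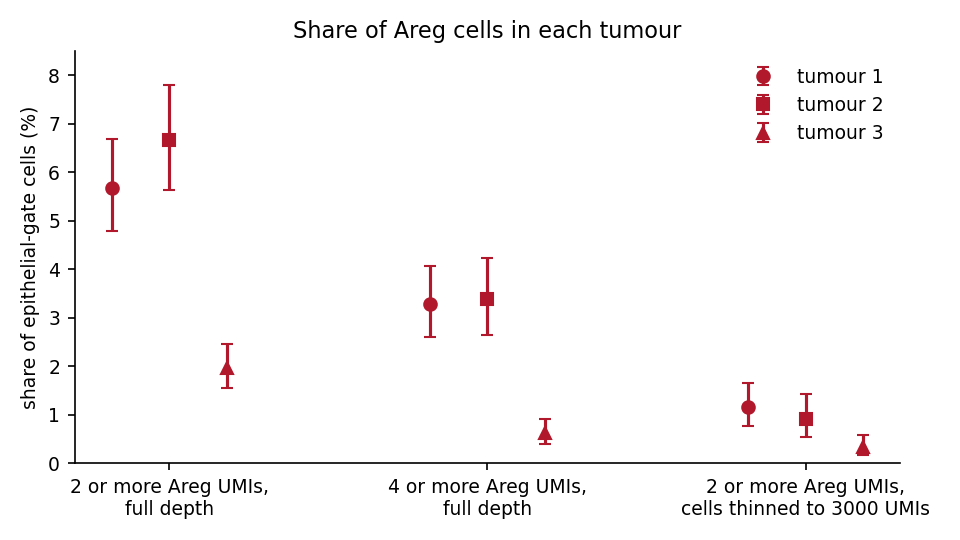
Share of Areg cells among epithelial-gate cells in percent (vertical axis) for 3 definitions (horizontal axis), 1 point per tumour with its exact binomial 95% interval. Tumour 3 is lowest under each definition, and thinning every cell to 3000 UMIs lowers the shares from 5.68%, 6.65% and 1.96% to 1.15%, 0.901% and 0.332%.

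The counts that chose the cells are given as a description, with no test. Areg cells held a median of 4, 4 and 3 Areg UMIs in tumours 1, 2 and 3, and up to 44, 27 and 19. Among the 354 cells, 118 sat at the cutoff of 2 Areg UMIs and 174 held 4 or more. Lama3 was found more often than Il1a: 222 cells held Lama3 without Il1a, 72 held Il1a without Lama3, and 60 held both. The order was the same in the 729 Areg 0 cells, at 541, 100 and 88. Summed over cells, Areg reached 375, 385 and 328 CPM in Areg cells and 4.26, 9.78 and 1.59 CPM in fibroblast-gated cells. Other epithelial cells of the tumours also held Areg. It stood at 109, 141 and 37.9 CPM in gastrokine-high cells and 42.96, 29.97 and 19.6 CPM in Mmp7-high cells, both defined below. Il1a stood at 54.2, 50.6 and 59.3 CPM in Areg cells and 50.3, 51.2 and 35.4 CPM in Areg 0 cells, and Lama3 at 193, 153 and 138 and 149, 158 and 155 CPM; the gate reads both genes in both groups.

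Tns4 and Npy were proposed as markers of these cells from earlier results of the same data, and are likewise described only. Npy, which encodes neuropeptide Y, stood at 448, 739 and 1919 CPM in Areg cells and at 113, 335 and 949 CPM in Areg 0 cells. It was higher in the Areg cells of each tumour, while the groups overlapped across tumours. After thinning to 3000 UMIs, 43.1%, 30.7% and 36.4% of Areg cells held an Npy UMI, against 17.004%, 17.1% and 17.5% of Areg 0 cells and 2.96%, 4.10% and 3.04% of fibroblast-gated cells. Without thinning the shares were 70.8%, 55% and 57.1% of Areg cells and 29.96%, 27.6% and 26.9% of Areg 0 cells, and fibroblast-gated cells had median UMIs of 7374, 7788 and 4998. Tns4, which encodes the focal adhesion protein tensin 4, stood at 32.7, 101 and 20.1 CPM in Areg cells and 27.3, 85.2 and 14.3 CPM in Areg 0 cells. In the authors' deposited table of 19 clusters, all 5 genes had their highest log2 fold change in cluster 3, at 2.36 for Areg, 3.18 for Il1a, 2.52 for Lama3, 2.25 for Tns4 and 2.22 for Npy. The clusters come from the same data, so this too is description only. Of genes that differed between Areg and Areg 0 cells below, Csf2 (4.13) and Lcn2 (-2.57) kept their direction in cluster 3. Lgr5 (1.23), Gc (2.53), Birc5 (-3.04) and Ube2c (-2.86) were among those with the opposite direction there. The deposited values describe a cluster of the whole data rather than Areg against Areg 0 cells, so these directions are not a like comparison.

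**Figure D2:**
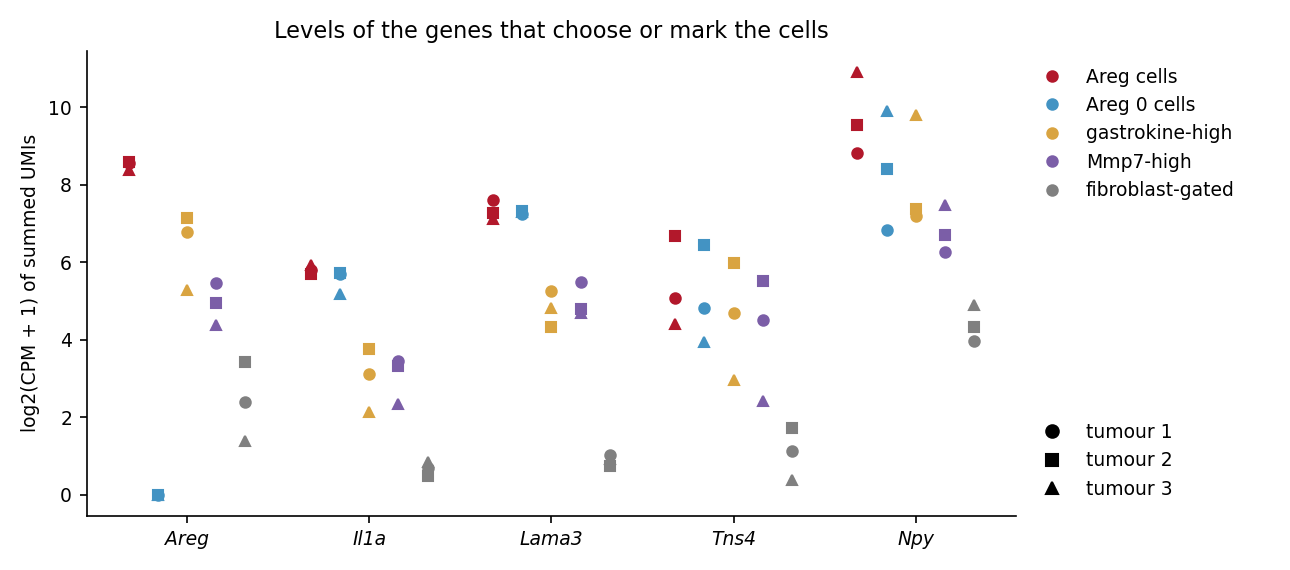
Levels of Areg, Il1a, Lama3, Tns4 and Npy as log2(CPM + 1) of summed UMIs (vertical axis) in 5 groups of cells (colours) and 3 tumours (shapes). Areg is 0 in Areg 0 cells by construction, and Npy lies above Areg 0 cells in each tumour, with 448, 739 and 1919 CPM in Areg cells.

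Values on either side of the cutoff of 2 Areg UMIs are given without a test. Cells with exactly 1 Areg UMI (87, 87 and 67 cells) had Ereg at 5.47, 9.004 and 6.26 CPM and Lcn2 at 28.2, 41.02 and 190.3 CPM. Cells with exactly 2 (40, 43 and 35 cells) had Ereg at 18.3, 16.7 and 4.74 CPM and Lcn2 at 16.5, 14.8 and 42.6 CPM. Dusp5 was 67.4, 38.02 and 63.8 CPM just outside the cutoff and 84.1, 51.9 and 61.6 CPM just inside it. The values on either side overlapped for each of these genes. Ereg, on 20 and 21 UMIs in all, and Dusp5 were lower just inside the cutoff in tumour 3.

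The promoter of Areg is shown because the cells were chosen on its transcripts, and that of Plaur because it rose in them; both are the 250 bases before the annotated start in RefSeq, build GRCm38.p6. The Areg promoter lies on the plus strand at chr5:91139349-91139598 and the Plaur promoter on the plus strand at chr7:24462233-24462482. Capitals mark matches to the cyclic AMP response element, TGACGTCA, or to the AP-1 element bound by FOS and JUN proteins, TGANTCA. Both strands were searched, and neither motif contains the other.
Areg: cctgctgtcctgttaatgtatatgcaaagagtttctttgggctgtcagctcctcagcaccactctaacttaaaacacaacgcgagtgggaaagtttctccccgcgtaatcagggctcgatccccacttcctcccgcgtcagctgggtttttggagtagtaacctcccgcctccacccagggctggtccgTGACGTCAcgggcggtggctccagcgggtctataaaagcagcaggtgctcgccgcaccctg
Plaur: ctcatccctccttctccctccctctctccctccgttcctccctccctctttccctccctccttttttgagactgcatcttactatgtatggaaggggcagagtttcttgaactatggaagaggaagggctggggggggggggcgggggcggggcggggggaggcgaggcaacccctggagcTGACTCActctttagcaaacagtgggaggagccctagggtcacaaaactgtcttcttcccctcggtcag
The Areg window held a cyclic AMP element beginning 61 bases before the start, and the Plaur window held an AP-1 element beginning 69 bases before it. The same windows of Dusp5, Inhba, Csf2, Lcn2 and Reg3g held neither run of letters. Among all 32851 RefSeq promoters, 6.75% held the AP-1 letters and 1.55% the cyclic AMP letters. Of the promoters of genes tested against Areg 0 cells, 4.53% held the AP-1 letters, against 9.62% (30 of 312 promoters) for genes that rose in Areg cells and 6.04% (9 of 149) for genes that fell. The cyclic AMP letters stood in 2.67% of tested genes' promoters, 2.88% for genes that rose and 2.01% for genes that fell. A match is a run of letters, and binding was not measured.

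Which genes differ between epithelial cells that carry amphiregulin and otherwise like cells that do not was asked by summing UMIs per tumour and group. Areg cells had more RNA of the EGF receptor ligands Ereg, Hbegf and Btc, of Dusp5, a feedback gene of the MAP kinase cascade, of the activin A subunit Inhba, and of Plaur, Acan and Vim. They had less of Lcn2, Reg1 and Reg3g. Of 9531 genes tested with edgeR's quasi-likelihood test with tumour as a block, 492 (5.16%) passed at a Benjamini-Hochberg adjusted p of 0.05, 309 (3.24%) higher and 183 (1.92%) lower in Areg cells. Over all tested genes the log2 fold change had a median of -0.01. Without the tumour block, edgeR called 0 genes, with 306 at an unadjusted p under 0.05, and all 492 kept their sign; DESeq2 called 107, and leaving out tumour 1 left 229 edgeR calls. With Areg 0 cells matched to Areg cells on total UMIs, 275 passed, of which 261 were among the 492, and after thinning to 3000 UMIs 154 passed.

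Levels are given from here on as those of the Areg cells of tumours 1, 2 and 3 against those of the comparison cells of the same tumours. Counts of list members against Areg 0 cells stand beside 3.24% higher and 1.92% lower of all tested genes, and no list was tested as a set. Csn3, the milk protein kappa-casein, had the highest log2 fold change of the genes that reached 20 CPM, at 1.97 ± 0.27 (SE). Its level was 10.8, 54.8 and 55.05 CPM against 4.67, 5.75 and 21.1 CPM, higher in each tumour but overlapping between groups (edgeR adjusted p = 8.01e-05), and it did not pass with at least 4 Areg UMIs (1.13, edgeR adjusted p = 0.273). Acan, the cartilage proteoglycan aggrecan, stood at 119, 22.2 and 43.4 CPM against 47.4, 8.37 and 6.77 CPM, a log2 change of 1.66 ± 0.21 (edgeR adjusted p = 2.09e-05). Inhba stood at 96.8, 255 and 22.2 CPM against 45.2, 63.3 and 12.04 CPM, a log2 change of 1.53 ± 0.16 (edgeR adjusted p = 3.11e-06). For both genes the groups overlapped. The same direction in 3 of 3 tumours, here and for Csn3, was a condition for naming a gene. Ivl, the cornified envelope protein involucrin, rose by 1.48 ± 0.17 on the log2 scale. Ggct, a glutathione cycle enzyme, stood at 323, 155 and 85.8 CPM against 62.5, 72.2 and 66.98 CPM (log2 change 1.45 ± 0.21; without tumour 1 0.83, edgeR adjusted p = 0.00171), and these groups did not overlap. Nptx1, a neuronal pentraxin, rose by 1.47 ± 0.22 and Nipal1, a magnesium transporter, by 1.23 ± 0.18. Parvb, a focal adhesion parvin, rose by 1.27 ± 0.20 but did not pass after thinning (0.62, edgeR adjusted p = 0.517) or with at least 4 Areg UMIs (1.17, edgeR adjusted p = 0.0519). Calls for a further 3 genes were lost with 1 tumour left out. Stc1, the secreted stanniocalcin, rose by 1.41 ± 0.22 but did not pass without tumour 1 (0.87, edgeR adjusted p = 0.189). Ptgs2, the prostaglandin synthase COX-2, rose by 1.24 ± 0.27 but did not pass without tumour 1 (1.18, edgeR adjusted p = 0.0535). Gm12603 rose by 1.27 ± 0.23 but did not pass without tumour 1 (1.04, edgeR adjusted p = 0.129).

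**Figure D3:**
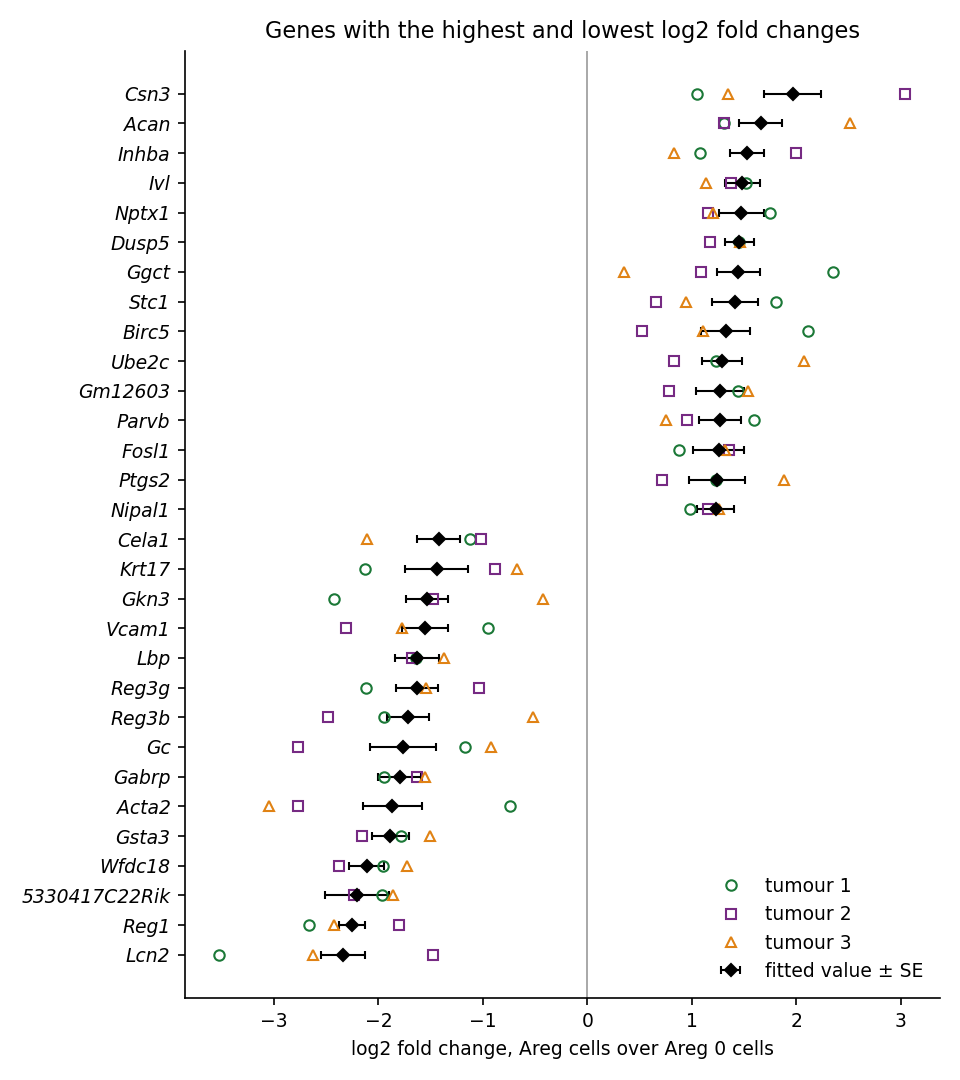
Fitted log2 fold change of Areg cells over Areg 0 cells (horizontal axis) for the 15 highest and 15 lowest genes (vertical axis), as diamonds with SE, and the log2 ratio of CPM + 1 within each tumour as open symbols. Every open symbol lies on the side of 0 of its gene's fitted value by construction, because only genes with the same sign in every tumour were eligible. The fitted values run from Csn3 at 1.97 to Lcn2 at -2.34.

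Among the EGF receptor ligands, 3 besides Areg rose and 0 fell. Ereg, which encodes epiregulin, stood at 16.6, 28.9 and 10.6 CPM against 3.59, 5.23 and 2.63 CPM, so every Areg value lay above every Areg 0 value, as held in either direction for 8.34% of all tested genes. Its log2 change was 2.30 ± 0.31 (edgeR adjusted p = 6.85e-05) on 103 UMIs in Areg cells and 27 in Areg 0 cells. Hbegf, heparin-binding EGF, stood at 478, 704 and 536 CPM against 264, 444 and 169.7 CPM, again without overlap (log2 change 1.09 ± 0.13, edgeR adjusted p = 1.64e-05). Btc, betacellulin, stood at 115, 117 and 26.5 CPM against 52.4, 60.7 and 14.7 CPM (log2 change 1.06 ± 0.13, edgeR adjusted p = 3.13e-05). Tumour 3 was low in Btc in both groups, and the groups overlapped. Tgfa, the ligand TGF alpha, stood at 36.7, 47.5 and 51.9 CPM against 27.3, 37.6 and 38.8 CPM and did not pass (log2 difference 0.44 ± 0.16, edgeR adjusted p = 0.11). In RefSeq on GRCm38.p6 the genes Epgn, Ereg, Areg and Btc follow one another on chromosome 5 among protein-coding genes. Epgn, the ligand epigen, had 0 UMIs in Areg cells and 1 in Areg 0 cells.

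The receptors and the proteases that shed the ligands did not pass. Egfr stood at 31.8, 28.9 and 13.8 CPM against 35.9, 35.03 and 9.78 CPM, a log2 difference of -0.08 ± 0.20. The difference was -0.33 ± 0.24 for Erbb2, -0.26 ± 0.14 for Erbb3, -0.16 ± 0.24 for the sheddase Adam17 and -0.33 ± 0.12 for Adam10. The negative regulators Errfi1 (0.30 ± 0.11) and Lrig1 (-0.41 ± 0.32) did not pass either, and without tumour 3 Errfi1 was at 0.47, edgeR adjusted p = 0.0043. Erbb4 had 0 UMIs in Areg cells. Of the 15 genes of this list, 11 were tested, and their median log2 difference was -0.08 against -0.01 for all tested genes. Egfr, Erbb2, Adam17 and Lrig1 took the opposite sign under at least 1 other setting.

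Feedback genes of the RAS and MAP kinase cascade had 5 higher and 0 lower of 16 tested members (median log2 fold change 0.40). Dusp5, a phosphatase that switches off nuclear ERK, stood at 112, 57.9 and 86.8 CPM against 40.6, 25.1 and 30.9 CPM. The groups did not overlap, and the log2 change was 1.46 ± 0.14 (edgeR adjusted p = 1.09e-06). Epha2, a receptor tyrosine kinase, stood at 53.3, 65.1 and 94.2 CPM against 34.8, 41.3 and 39.9 CPM (log2 change 0.88 ± 0.15), and Phlda1 rose by 0.72 ± 0.10. Spry2, a Sprouty inhibitor, rose by 0.66 ± 0.16, but did not pass without tumour 1 (0.65, edgeR adjusted p = 0.123) or without tumour 2 (0.60, edgeR adjusted p = 0.0953).

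Immediate early and dissociation stress genes had 14 higher and 0 lower of 24 tested members (median log2 fold change 0.41). Growth factors induce these genes within minutes and tissue dissociation also induces them, and the part of dissociation was not tested. Fosl1, an AP-1 subunit, stood at 24.6, 21.7 and 21.2 CPM against 12.9, 7.84 and 7.90 CPM, without overlap (log2 change 1.26 ± 0.25, edgeR adjusted p = 0.00278). Maff, a small MAF factor, rose by 0.70 ± 0.14 and Atf3, a stress-induced factor, by 0.56 ± 0.11. Both were higher in 3 of 3 tumours, which was a condition for naming them. Nr4a1, an orphan nuclear receptor, rose by 0.89 ± 0.19, but did not pass without tumour 3 (0.54, edgeR adjusted p = 0.0631).

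Interleukin-1 family genes other than Il1a had 2 higher and 1 lower of 7 tested members (median log2 fold change 0.62). Il1rn, the antagonist that blocks the interleukin-1 receptor, stood at 54.7, 44.4 and 29.6 CPM against 35.5, 38.2 and 10.2 CPM (log2 change 0.68 ± 0.19, edgeR adjusted p = 0.0439). It did not pass without tumour 1 (0.69, edgeR adjusted p = 0.207) or without tumour 3 (0.48, edgeR adjusted p = 0.122). Il33, a nuclear alarmin, stood at 35.9, 12.9 and 4.23 CPM against 23.7, 2.61 and 0.376 CPM (log2 change 1.10 ± 0.32, edgeR adjusted p = 0.0485), did not pass without tumour 2 (0.81, edgeR adjusted p = 0.138) and fell under the filter on low counts without tumour 1. Il18, a cytokine matured by inflammasomes, stood at 21.5, 18.1 and 10.6 CPM against 43.4, 42.9 and 13.5 CPM (log2 change -0.97 ± 0.21, edgeR adjusted p = 0.00593), and did not pass without tumour 1 (-0.95, edgeR adjusted p = 0.11) or without tumour 2 (-0.79, edgeR adjusted p = 0.0556). The groups overlapped for all 3 genes. The receptor Il1r1 (0.85 ± 0.32), its partner Il1rap (0.62 ± 0.40), Il18r1 (0.22 ± 0.20) and the adaptor Myd88 (0.10 ± 0.34) did not pass. Il1b, the form made by activated myeloid cells, had 16 UMIs in Areg cells and 6 in Areg 0 cells and was not tested.

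NF-kB target cytokines and chemokines had 3 higher and 3 lower of 18 tested members (median log2 fold change 0.09). Csf2, the myeloid growth factor GM-CSF, stood at 88.7, 131 and 69.9 CPM against 46.7, 65.4 and 17.7 CPM, without overlap (log2 change 1.23 ± 0.16, edgeR adjusted p = 3.92e-05). Lif, a cytokine of the interleukin-6 family, rose by 1.19 ± 0.28, but did not pass without tumour 1 (1.17, edgeR adjusted p = 0.129). Icam1, the leukocyte adhesion receptor, fell by 1.00 ± 0.28 on the log2 scale, but did not pass without tumour 2 (-0.82, edgeR adjusted p = 0.156) or without tumour 3 (-0.88, edgeR adjusted p = 0.115).

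**Figure D4:**
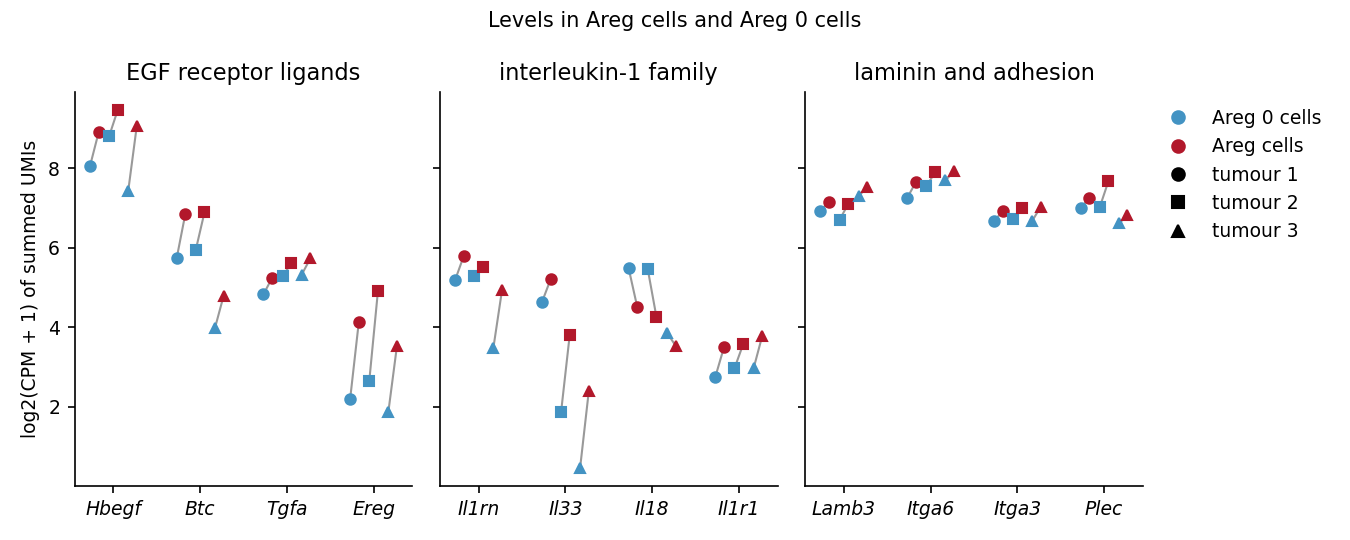
Levels as log2(CPM + 1) of summed UMIs (vertical axis) for EGF receptor ligands, interleukin-1 family genes and laminin or adhesion genes (horizontal axis), with Areg 0 cells in blue joined to Areg cells of the same tumour in red. Hbegf, Btc and Ereg are higher in Areg cells in all 3 tumours and Il18 is lower in all 3.

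Laminin and integrin genes had 3 higher and 0 lower of 19 tested members (median log2 fold change 0.19), beside 3.24% higher and 1.92% lower of all tested genes. Lamb3, the laminin beta 3 chain, stood at 142, 135 and 184 CPM against 121, 103 and 155 CPM and did not pass (0.34 ± 0.10, edgeR adjusted p = 0.0609); against Areg 0 cells matched on UMIs it did (0.54, edgeR adjusted p = 0.00868). Itga6, an integrin chain that binds laminin-332, rose by 0.38 ± 0.10 but did not pass without tumour 1 (0.35, edgeR adjusted p = 0.148). Plec, the plectin of hemidesmosomes, rose by 0.44 ± 0.11 but did not pass without tumour 2 (0.31, edgeR adjusted p = 0.24). Itgb4 (0.07 ± 0.13), Itga3 (0.34 ± 0.11), Itgb1 (0.19 ± 0.09) and Lama5 (-0.09 ± 0.13) did not pass.

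Focal adhesion and actin genes had 6 higher and 0 lower of 23 tested members (median log2 fold change 0.20). Ezr, the membrane linker ezrin, stood at 493, 545 and 681 CPM against 342, 454 and 458 CPM (log2 change 0.50 ± 0.09), and the membrane-binding annexins Anxa1 and Anxa2 rose by 0.46 ± 0.08 and 0.46 ± 0.08. YAP and TEAD targets had 4 higher and 1 lower of 16 tested members (median log2 fold change 0.13). F3, the coagulation starter tissue factor, stood at 298, 194 and 302 CPM against 97.6, 108 and 158 CPM, without overlap (log2 change 1.19 ± 0.12, edgeR adjusted p = 1.73e-06). Ankrd1, a YAP target, stood at 319, 142 and 9.53 CPM against 211, 81.6 and 8.28 CPM (log2 change 0.69 ± 0.12), and tumour 3 was low in both groups. Ptpn14, which restrains YAP, fell by 0.87 ± 0.22 on the log2 scale, but did not pass without tumour 1 (-0.85, edgeR adjusted p = 0.122) or without tumour 3 (-0.74, edgeR adjusted p = 0.0753).

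Protease and wound-front genes had 9 higher and 4 lower of 21 tested members (median log2 fold change 0.36). Plaur, the receptor of urokinase, stood at 305, 289 and 495 CPM against 141, 180.4 and 196 CPM, without overlap (log2 change 1.10 ± 0.11, edgeR adjusted p = 1.85e-06). After thinning, 56.2%, 52.9% and 66.2% of Areg cells held a Plaur UMI, against 28.7%, 38.7% and 37.5% of Areg 0 cells and 18.1%, 24.9% and 19.1% of fibroblast-gated cells; without thinning the share in Areg cells was 91.97%, 85.7% and 89.6%. Tnc, tenascin C, fell by 1.35 ± 0.27 on the log2 scale, and without tumour 1 its change was -0.54, edgeR adjusted p = 0.0477. It did not pass with DESeq2 (-1.29, DESeq2 adjusted p = 0.69), with at least 4 Areg UMIs (-1.01, edgeR adjusted p = 0.28) or with no limit on Il1a or Lama3 (-0.35, edgeR adjusted p = 0.46). Fn1, fibronectin, stood at 638, 1413 and 1759 CPM against 1869.6, 1603 and 2568 CPM (log2 change -0.70 ± 0.15), but did not pass without tumour 1 (-0.31, edgeR adjusted p = 0.239), and was at 0.17, edgeR adjusted p = 0.39, against Areg 0 cells with no limit on Il1a or Lama3.

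Epithelial-mesenchymal transition genes had 3 higher and 1 lower of 14 tested members (median log2 fold change 0.05). Vim, the intermediate filament vimentin, stood at 938, 918 and 809.9 CPM against 358, 435 and 408 CPM, and every Areg value lay above every Areg 0 value (log2 change 1.21 ± 0.09, edgeR adjusted p = 3.36e-08). Against Areg 0 cells with no limit on Il1a or Lama3 the Vim change was 0.54, edgeR adjusted p = 0.184. The sum over fibroblast markers, a cell type rich in Vim, was 201, 155 and 150.3 CPM in Areg cells and 219, 152 and 165 CPM in Areg 0 cells, with 10 of 10 markers found in both groups. The sum over 10 mesothelial markers, another cell type rich in Vim, was 389, 357 and 896 CPM in Areg cells and 381, 348 and 708 CPM in Areg 0 cells, higher in 3 of 3 tumours (exact permutation p = 0.25, two-sided, the smallest that 3 tumours can give). All 10 were found in both groups. The same sum was 384, 450 and 901 CPM in Mmp7-high cells, against which Vim also rose (below). Vim still passed with a stricter epithelial gate, which drops cells with any Lrrn4, Upk3b or Wt1 UMI. Beyond this, the part of mesothelial RNA in the Vim level was not tested. Hmga2, a chromatin protein of embryonic and invasive cells, rose by 0.96 ± 0.10.

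Lcn2 and Reg1 were among the 15 lowest genes. Lcn2, which binds bacterial siderophores, stood at 15.7, 90.4 and 59.3 CPM against 191, 254 and 372 CPM, and the groups did not overlap (log2 change -2.34 ± 0.21, edgeR adjusted p = 2.94e-07). Reg1, a lectin of regenerating exocrine pancreas, stood at 190.0, 212 and 106 CPM against 1213, 744 and 575 CPM, also without overlap (log2 change -2.25 ± 0.12, edgeR adjusted p = 1.05e-10). The antimicrobial lectins Reg3b (-1.72 ± 0.20) and Reg3g (-1.63 ± 0.21) were lower as well, Reg3g without overlap between groups and Reg3b with it, and with DESeq2 Reg3b did not pass (-1.61, DESeq2 adjusted p = 0.146). Lbp, which binds bacterial lipopolysaccharide, changed by -1.63 ± 0.21, Wfdc18 by -2.11 ± 0.17, and Gsta3, a glutathione transferase, by -1.89 ± 0.18. Gabrp, a GABA receptor subunit (-1.80 ± 0.21), Gc, the vitamin D binding protein (-1.77 ± 0.31; without tumour 2 -1.13, edgeR adjusted p = 0.0361), and 5330417C22Rik (-2.21 ± 0.31) were also among the 15 lowest.

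Classical pancreatic tumour and gastric genes had 3 higher and 7 lower of 21 tested members (median log2 fold change -0.21). Gkn3, a gastrokine that the gate does not read, stood at 296, 225 and 136 CPM against 1600.0, 629 and 182 CPM (log2 change -1.53 ± 0.20, edgeR adjusted p = 4.92e-05; without tumour 1 -0.99, edgeR adjusted p = 0.000129). Agr2, which helps fold mucins, stood at 42.1, 121 and 13.8 CPM against 115, 269 and 31.6 CPM (log2 change -1.23 ± 0.13), and both genes overlapped between groups. Basal-like and squamous genes had 1 higher and 2 lower of 12 tested members (median log2 fold change -0.08). Pthlh, the parathyroid hormone-related protein, rose by 1.16 ± 0.17 and Ly6d fell by 0.84 ± 0.15 on the log2 scale. Krt17, a stress keratin, fell by 1.44 ± 0.30, but did not pass without tumour 1 (-0.81, edgeR adjusted p = 0.36). Ductal genes had 1 higher and 2 lower of 14 tested members (median log2 fold change -0.21), among them Spp1, osteopontin, at 6313, 10027 and 1234 CPM against 8760.4, 11973 and 4446 CPM (log2 change -0.79 ± 0.16; without tumour 3 -0.33, edgeR adjusted p = 2.91e-12). Spp1 did not pass with DESeq2 (-0.78, DESeq2 adjusted p = 0.716) or with at least 4 Areg UMIs (-0.91, edgeR adjusted p = 0.166). The fit without tumour 3 rests on 2 tumours only, so its small p-value for Spp1 is weak evidence.

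Summed markers of smooth muscle, acinar and Schwann cells were lower in Areg cells in each tumour. Acta2, smooth muscle actin, stood at 22.9, 12.4 and 3.18 CPM against 38.8, 90.5 and 33.5 CPM (log2 change -1.87 ± 0.28). Without tumour 1 the change was -2.91, edgeR adjusted p = 7.72e-09, and without tumour 2 it was -1.22, edgeR adjusted p = 0.000184. Each of these fits rests on 2 tumours only. The sum over 10 pericyte and smooth muscle markers was 47.5, 32.6 and 12.7 CPM in Areg cells and 84.004, 141 and 60.2 CPM in Areg 0 cells, lower in 3 of 3 tumours (exact permutation p = 0.25, two-sided). All 10 markers were found in both groups. Cela1, an acinar elastase, fell by 1.42 ± 0.21 on the log2 scale. The sum over 9 acinar markers was 172, 23.3 and 1087 CPM in Areg cells and 316, 92.5 and 1094 CPM in Areg 0 cells, lower in 3 of 3 tumours (exact permutation p = 0.25), with all 9 found in both groups. The sum over 8 Schwann markers was 51.5, 56.8 and 79.4 CPM in Areg cells and 65.7, 67.97 and 103 CPM in Areg 0 cells, lower in 3 of 3 tumours (exact permutation p = 0.25), with Sox10, Cdh19 and Foxd3 at 0 in both groups. Erbb3, an EGF receptor family gene on this list, made up most of each sum, at 39.9, 46.0 and 70.9 CPM in Areg cells. It stood at 53.8, 50.2 and 91.1 CPM in Areg 0 cells and did not pass, so this sum does not show Schwann RNA. All 30 of the highest and lowest genes, Acta2, Cela1, Reg1, Reg3b, Reg3g and Lcn2 included, still passed with the stricter epithelial gate. That gate also drops cells with at least 10 Ctrb1, Cela2a and Cpa1 UMIs together per 10000. It reads no pericyte or smooth muscle gene. The part of such RNA, or of acinar RNA in the kept cells, in these lower levels was not tested. Vcam1, a leukocyte adhesion receptor, fell by 1.55 ± 0.22.

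Hypoxia and glycolysis genes had 10 higher and 0 lower of 21 tested members (median log2 fold change 0.42). Slc16a3, the lactate exporter MCT4, stood at 136, 80.6 and 6.35 CPM against 53.5, 42.4 and 4.52 CPM (log2 change 1.16 ± 0.16, edgeR adjusted p = 5.84e-05), and tumour 3 was low in both groups. Slc2a1, the glucose transporter GLUT1, rose by 0.78 ± 0.12 and Ndrg1 by 0.72 ± 0.12. G2 and M phase genes had 4 higher and 0 lower of 17 tested members (median log2 fold change 0.54), and S phase genes had 0 higher and 0 lower of 17 tested members (median log2 fold change 0.14). Ube2c, which works with the anaphase-promoting complex, stood at 61.4, 73.4 and 34.9 CPM against 25.5, 40.8 and 7.53 CPM (log2 change 1.29 ± 0.19). After thinning it did not pass (0.75, edgeR adjusted p = 0.468), and against UMI-matched Areg 0 cells its change was 0.84, edgeR adjusted p = 0.00582. Birc5, survivin, stood at 48.4, 41.9 and 32.8 CPM against 10.4, 28.8 and 14.7 CPM (log2 change 1.32 ± 0.24), but did not pass without tumour 1 (0.83, edgeR adjusted p = 0.0704). The mitotic regulators Ccnb2 (1.06 ± 0.29) and Cdc20 (0.90 ± 0.25) did not pass without tumour 1 either, at 0.58, edgeR adjusted p = 0.563, and 0.47, edgeR adjusted p = 0.62. Without tumour 2 the Ccnb2 change was 1.66, edgeR adjusted p = 0.000218. Against UMI-matched Areg 0 cells none of these 3 passed, with Birc5 at 0.94, edgeR adjusted p = 0.058, Ccnb2 at 0.66, edgeR adjusted p = 0.274, and Cdc20 at 0.43, edgeR adjusted p = 0.476.

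The lists of this paragraph had few calls, beside 3.24% higher and 1.92% lower of all tested genes, and their counts are not read as results about the lists. Interferon response and MHC class I genes had 0 higher and 1 lower of 8 tested members (median log2 fold change -0.22), and tight junction genes had 0 higher and 1 lower of 16 tested members (median log2 fold change -0.11). Targets of p53 had 1 higher and 0 lower of 14 tested members (median log2 fold change 0.05), with Cdkn1a, the cell cycle inhibitor p21, higher by 0.70 ± 0.11. Secretory pathway genes had 1 higher and 0 lower of 17 tested members (median log2 fold change 0.01), and NRF2 and glutathione genes had 1 higher and 2 lower of 16 tested members (median log2 fold change -0.05). Stem cell genes had 2 higher and 2 lower of 15 tested members (median log2 fold change -0.15). Lgr5, a stem cell receptor of gut and stomach, stood at 1.79, 1.55 and 6.35 CPM against 8.97, 12.5 and 14.3 CPM (log2 change -2.03 ± 0.42), Prom1 fell by 0.77 ± 0.12, and Aldh1a3 rose by 0.63 ± 0.10.

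Which of the calls above passed also depended on the tool and on the cells compared, and the values are on the log2 scale. With at least 4 Areg UMIs, Gm12603 (1.23, adjusted p = 0.0564), Gc (-1.48, adjusted p = 0.103), Gkn3 (-1.61, adjusted p = 0.088), Il33 (1.41, adjusted p = 0.194), Il1rn (0.89, adjusted p = 0.208), Plec (0.41, adjusted p = 0.311), Itga6 (0.32, adjusted p = 0.419), Ezr (0.54, adjusted p = 0.0552), Ptpn14 (-0.77, adjusted p = 0.251), Icam1 (-1.07, adjusted p = 0.162), Nr4a1 (1.14, adjusted p = 0.126), Fn1 (-0.70, adjusted p = 0.208), Ccnb2 (1.05, adjusted p = 0.369) and Cdc20 (1.13, adjusted p = 0.26) did not pass in edgeR. With DESeq2, Ggct (1.34, adjusted p = 0.276), Gm12603 (1.35, adjusted p = 0.0539), Acta2 (-2.20, adjusted p = 0.113), Gkn3 (-1.39, adjusted p = 0.283), Spry2 (0.67, adjusted p = 0.378), Il18 (-0.88, adjusted p = 0.339), Il1rn (0.79, adjusted p = 0.305), Plec (0.45, adjusted p = 0.255), Itga6 (0.40, adjusted p = 0.213), Ptpn14 (-0.88, adjusted p = 0.405), Ly6d (-1.08, adjusted p = 0.337), Nr4a1 (0.93, adjusted p = 0.0981), Maff (0.73, adjusted p = 0.0653) and Fn1 (-0.69, adjusted p = 0.716) did not pass. After thinning, Stc1 (1.08, adjusted p = 0.149), Gabrp (-1.39, adjusted p = 0.0739), Epha2 (0.94, adjusted p = 0.057), Spry2 (0.56, adjusted p = 0.523), Il18 (-0.91, adjusted p = 0.277), Il1rn (0.78, adjusted p = 0.325), Plec (0.39, adjusted p = 0.354), Itga6 (0.45, adjusted p = 0.12), Ly6d (-0.31, adjusted p = 0.532) and Agr2 (-0.69, adjusted p = 0.0855) did not pass in edgeR. With no limit on Il1a or Lama3 in Areg 0 cells, Birc5 (0.69, adjusted p = 0.0838), Krt17 (-0.51, adjusted p = 0.415), Ptpn14 (-0.70, adjusted p = 0.0623), Nr4a1 (0.34, adjusted p = 0.316), Atf3 (0.31, adjusted p = 0.14), Ccnb2 (0.16, adjusted p = 0.739) and Cdc20 (0.18, adjusted p = 0.657) did not pass in edgeR. With no limit on Il1a or Lama3 in Areg 0 cells, Tgfa (0.98, adjusted p = 0.0017), Il18r1 (0.92, adjusted p = 0.00955), Lamb3 (1.32, adjusted p = 2.58e-05), Itgb4 (0.53, adjusted p = 0.033), Itga3 (0.93, adjusted p = 0.00041) and Itgb1 (0.59, adjusted p = 0.00674) passed in edgeR. With matched UMIs, Fosl1 (0.96, adjusted p = 0.0505), Krt17 (-1.25, adjusted p = 0.097), Il33 (0.71, adjusted p = 0.3), Icam1 (-0.73, adjusted p = 0.284) and Nr4a1 (0.80, adjusted p = 0.0708) did not pass in edgeR. With at most 10% mitochondrial UMIs, Il33 (1.07, adjusted p = 0.0693), Il1rn (0.67, adjusted p = 0.059) and Icam1 (-0.98, adjusted p = 0.0555) did not pass in edgeR. With a stricter epithelial gate, Plec (0.31, adjusted p = 0.121) did not pass in edgeR. Without Scrublet-marked cells, Lamb3 (0.35, adjusted p = 0.0488) passed in edgeR. Against those Areg 0 cells with no limit, the following passed with a log2 change that differed by over 1.5 times: Acan 2.67, Inhba 2.37, Reg1 -4.13, Wfdc18 -3.32, Reg3b -3.71, Reg3g -3.29, Cela1 -2.70, Phlda1 1.14, Il1rn 1.19, Plec 0.72, Ezr 0.81, Anxa1 1.00, Anxa2 0.78, F3 2.06, Ankrd1 1.31, Ly6d -1.64, Agr2 -1.96, Csf2 2.63, Cdkn1a 1.07, Slc2a1 1.28, Ndrg1 1.12 and Aldh1a3 1.45.

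**Figure D5:**
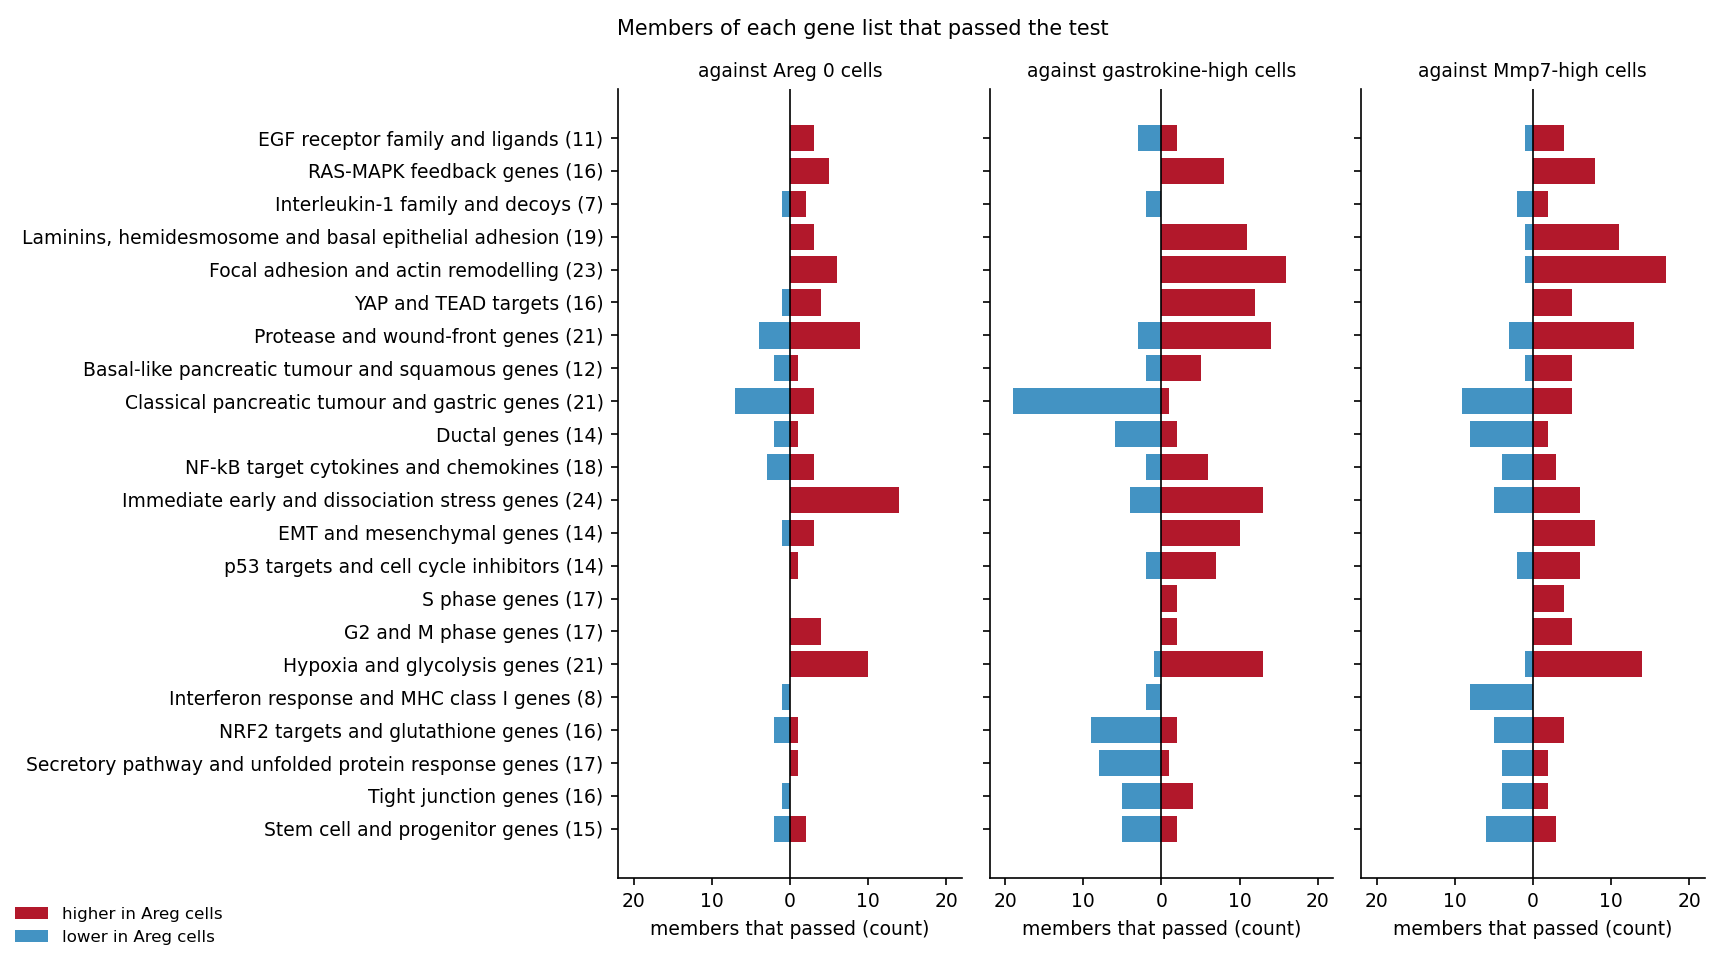
Number of members of each gene list that passed the test (horizontal axis), higher in Areg cells to the right in red and lower to the left in blue, in each of 3 comparisons; the number beside each list name is how many of its members were tested against Areg 0 cells. Immediate early genes have 14 higher members against Areg 0 cells, and gastric genes 19 lower members against gastrokine-high cells. Of all tested genes, 3.24% were higher and 1.92% lower against Areg 0 cells. The shares were 14.2% and 14.8% against gastrokine-high cells, and 10.7% and 9.83% against Mmp7-high cells.

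How the Areg cells differ from other epithelial states of the same tumours was asked with the same sums; these comparisons share the Areg cells with the first. The comparison cells were not limited on Il1a or Lama3, so the effects of that limit and of Areg cannot be told apart in these differences. Gastrokine-high cells (279, 147 and 207 epithelial-gate cells with at least 10 Gkn1 plus Gkn2 UMIs per 10000) had less Csf2, Inhba, Fn1 and Msn and more Gkn3, Tff1 and Agr2 than Areg cells. Of 9101 genes tested with edgeR, 2637 (29%) passed, 1291 (14.2%) higher and 1346 (14.8%) lower in Areg cells. Csf2 stood at 88.7, 131 and 69.9 CPM against 0.813, 0 and 0 CPM, and gastrokine-high cells held 3 UMIs in all, a ratio of 233 with an exact counting interval of 79.2 to 1132. Inhba stood at 96.8, 255 and 22.2 CPM against 1.63, 1.40 and 0 CPM, and its log2 change was 6.34 ± 0.31 (edgeR adjusted p = 4.61e-07). Neither gene overlapped between the groups, as held for 29.6% of all tested genes. Areg 0 cells, which share the Il1a or Lama3 limit, also held more of both genes than gastrokine-high cells, with Inhba at 45.2, 63.3 and 12.04 CPM.

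Fn1 was higher in Areg cells than in gastrokine-high cells, and higher still in the Areg 0 cells of each tumour (above). It stood at 638, 1413 and 1759 CPM against 69.7, 117 and 87.6 CPM, a log2 change of 3.53 ± 0.19 (edgeR adjusted p = 8.30e-07). Lamb3 stood at 46.4, 29.4 and 65.5 CPM in gastrokine-high cells and at 121, 103 and 155 CPM in Areg 0 cells, which share the Il1a or Lama3 limit but lack Areg, so the laminin genes are not counted here. Focal adhesion genes had 16 higher and 0 lower of 23 tested members (median log2 fold change 1.00), with the membrane linker Msn, moesin, at 336, 435 and 381 CPM against 45.3, 40.6 and 42.4 CPM. YAP and TEAD targets had 12 higher and 0 lower of 16 tested members (median log2 fold change 1.65). Transition genes had 10 higher and 0 lower of 13 tested members (median log2 fold change 1.70), among them Zeb1, a repressor of epithelial genes (2.71 ± 0.44). Hmga2 stood at 354, 578 and 562 CPM against 15.997, 51.1 and 43.5 CPM, a log2 change of 3.71 ± 0.19. The EGF receptor list had 2 higher and 3 lower of 11 tested members (median log2 fold change 0.23). Hbegf (1.71 ± 0.14) and Tgfa (0.88 ± 0.18) rose, Btc (-0.12 ± 0.16) and Ereg (0.83 ± 0.31) did not pass, and Erbb2 (-0.71 ± 0.24), Erbb3 (-1.20 ± 0.14) and Lrig1 (-1.42 ± 0.38) fell. Of these, Tgfa did not pass without tumour 1 (0.82, edgeR adjusted p = 0.0618), Erbb2 without tumour 1 (-0.64, edgeR adjusted p = 0.256) or without tumour 3 (-0.59, edgeR adjusted p = 0.09), and Lrig1 without tumour 1 (-0.92, edgeR adjusted p = 0.201) or without tumour 2 (-1.31, edgeR adjusted p = 0.0866). With DESeq2, Erbb2 (-0.75, adjusted p = 0.235) did not pass. With at most 10% mitochondrial UMIs, Erbb2 (-0.69, adjusted p = 0.051) did not pass in edgeR. With a stricter epithelial gate, Erbb2 (-0.59, adjusted p = 0.0898) did not pass in edgeR. With a stricter epithelial gate, Ereg (0.87, adjusted p = 0.0477) passed in edgeR. Without a filter on low counts, Ereg (0.81, adjusted p = 0.0296) passed in edgeR.

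The comparison cells were chosen on gastrokines, and classical and gastric genes had 1 higher and 19 lower of 21 tested members (median log2 fold change -1.69). Tff1, a trefoil peptide of stomach surface mucus, stood at 1329, 1236 and 1209 CPM against 28186, 25731 and 24329 CPM (log2 change -4.54 ± 0.09). Agr2 changed by -5.29 ± 0.22 and Gkn3 by -5.30 ± 0.11. Secretory pathway genes had 1 higher and 8 lower of 17 tested members (median log2 fold change -0.34), among them Spdef, a driver of mucous secretion (-3.05 ± 0.31), and Creb3l1 (-3.09 ± 0.23). NRF2 and glutathione genes had 2 higher and 9 lower of 16 tested members (median log2 fold change -0.51), with the glutathione peroxidase Gpx2 at 163, 105 and 95.3 CPM against 1191, 536 and 296 CPM.

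Transcripts usually read in lymphocytes were among the 6 highest in this comparison. Trbc1, a T cell receptor beta constant gene, stood at 27.3, 124 and 109 CPM against 1.36, 0 and 0.565 CPM (log2 change 6.01 ± 0.46, edgeR adjusted p = 7.12e-06). Ctsw, cathepsin W of cytotoxic cells, had 122 UMIs in Areg cells and 3 in gastrokine-high cells, a ratio of 54.8 with an exact counting interval of 18.3 to 269. Of 10 T and NK markers, 7 had 0 UMIs in Areg cells (Cd3d, Cd3g, Cd8a, Cd4, Nkg7, Gzma and Ncr1), Cd3e had 1, and the sum of the list was 2.69, 12.4 and 7.41 CPM. Trbc1 was also found in Areg 0 cells, at 31.95, 41.3 and 36.5 CPM.

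Mmp7 encodes the protease matrilysin. Mmp7-high cells (295, 322 and 1762 cells) were epithelial-gate cells within the same limits on gastrokines, Muc6 and Muc5ac that held at least 2 Mmp7 UMIs. Against them the Areg cells had more Acan, Csf2, Vim and Plaur and more of the 4 tested EGF receptor ligands, and less Lcn2, Ly6d and interferon response RNA. Of 10025 genes tested with edgeR, 2056 (20.5%) passed, 1071 (10.7%) higher and 985 (9.83%) lower in Areg cells. Ereg rose by 3.24 ± 0.37 on the log2 scale, Tgfa by 1.18 ± 0.19, Hbegf by 1.12 ± 0.19 and Btc by 0.85 ± 0.16. Csf2 stood at 88.7, 131 and 69.9 CPM against 7.29, 11.1 and 2.83 CPM (log2 change 3.95 ± 0.23, edgeR adjusted p = 6.93e-06). Acan rose by 4.57 ± 0.24 and Vim by 3.00 ± 0.14. Plaur stood at 305, 289 and 495 CPM against 92.8, 87.4 and 61.2 CPM (2.18 ± 0.23), and Dusp5 rose by 1.89 ± 0.17. In these genes, Btc excepted, every Areg value lay above every Mmp7-high value, and 25.9% of all tested genes had groups that did not overlap in one direction or the other.

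Lcn2 stood at 15.7, 90.4 and 59.3 CPM against 3046, 1689 and 5579.9 CPM, a log2 change of -5.98 ± 0.53 (edgeR adjusted p = 6.82e-05), and Ly6d changed by -3.15 ± 0.18. Interferon response and MHC class I genes had 0 higher and 8 lower of 11 tested members (median log2 fold change -0.95), against a median of -0.03 for all tested genes. Psmb8, a subunit of the immunoproteasome, stood at 1.34, 2.58 and 1.06 CPM against 53.3, 31.4 and 13.5 CPM, and Il18 changed by -1.54 ± 0.26. Ces1d, a carboxylesterase, had 0 UMIs in Areg cells and 276 in Mmp7-high cells, so it was at least 25.4-fold lower when Areg cells are set at 3 UMIs over the group; DESeq2 did not call it (DESeq2 adjusted p = 0.111). Hypoxia and glycolysis genes had 14 higher and 1 lower of 21 tested members (median log2 fold change 1.29), with Ndrg1 at 160.0, 167 and 136 CPM against 50.6, 37.8 and 39.6 CPM. Focal adhesion genes had 17 higher and 1 lower of 23 tested members (median log2 fold change 0.80), and Lamb3 stood at 62.9, 41.04 and 96.1 CPM in Mmp7-high cells, below Areg 0 cells in each tumour. Immediate early genes had 6 higher and 5 lower of 25 tested members (median log2 fold change 0.05). Sprr1a, a small proline-rich protein of stressed epithelium, rose by 2.45 ± 0.16. After thinning, Btc (0.73, adjusted p = 0.0593) did not pass in edgeR.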

How the data were processed

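Single cells of 3 KPf/fC tumours were measured by 10x 3' v2 sequencing. The authors deposited 1 table of UMI counts per gene and barcode; per the labels, a suffix of the barcode names the tumour. Cell Ranger 2.1.1 and Seurat 3.0 are named per the submitters' processing notes. The labels and headers state no genome build or gene annotation. The authors' deposited table of clusters holds log2 fold changes and p-values, of which only the fold changes were used.

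UMI counts were summed per tumour and cell group, and the genes the gates read, with Tns4 and Npy, were left out of the tests. Sums were compared with edgeR 4.0.16 (R 4.3.3; TMM, filterByExpr, quasi-likelihood test, tumour as a block) and Benjamini-Hochberg adjustment at 0.05 over all tested genes. The 2 sums compared share a tumour, and their deviations from the group means correlated at 0.36 to 0.73. The members and gene lists were chosen with earlier results of these data known. Named genes were, among those that passed, had the same sign in 3 of 3 tumours and reached a mean of 20 CPM in 1 of the groups, the 15 highest and 15 lowest against Areg 0 cells and 6 and 6 in each other comparison. To these were added up to 4 genes per list that passed with the same sign in 3 of 3 tumours, with no CPM limit, and every tested member of the EGF receptor, interleukin-1 and laminin lists; some named genes are not reported here. Genes added for a value beside these (such as Epgn, Il1b and Cd3e) were chosen from the lists or markers. Total UMIs per tumour were 60801677, 67262634 and 53162622, and Areg cells summed to 2231296, 1935175 and 944596. Shares carry exact (Clopper-Pearson) 95% intervals. No doublets were removed in the main analysis; Scrublet, run through scanpy 1.11.5, marked 1.28%, 1.55% and 1.94% of cells. The test against Areg 0 cells was tested on simulated data with 9377 genes, where it recovered 93 of 95 genes changed by 2 and 53 of 98 changed by 1 on the log2 scale, with 5 false calls. The simulated counts had no tumour effect and the same dispersion for every gene. They cannot show how the test does on real sums that share a tumour. Alternatives were DESeq2 1.42.0, no block, no filter, thinning to 3000 UMIs, matching on UMIs, other gates and leaving out each tumour.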

Additional observations from a re-analysis of the deposited data

How the results depend on the processing

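The count of 492 genes against Areg 0 cells was 0 without the replicate block, 107 with DESeq2, 154 after thinning each cell to 3000 UMIs, 128 with at least 4 Areg UMIs, 1263 with no limit on Il1a or Lama3, 275 with matched UMIs, and 229 to 552 with 1 tumour left out, lowest without tumour 1. DESeq2 gave 77.6% of its calls as higher, against 62.8% in edgeR. Against gastrokine-high cells the count of 2637 was 733 without the block, 1497 with DESeq2, 1363 after thinning and 1428 to 2693 with 1 tumour left out. Against Mmp7-high cells the count of 2056 was 451 without the block, 1342 with DESeq2, 1054 after thinning and 1519 to 1789 with 1 tumour left out; without a filter on low counts the median of all genes there was -0.178. The share of Areg cells became 1.15% in tumour 1 and 0.901% in tumour 2 after thinning, and 3.37% in tumour 2 with at least 4 Areg UMIs. Of 3711 values of 349 named changes under the alternatives, 3239 kept direction and side of the threshold, 421 no longer passed, 14 newly passed and 37 changed sign; 20 more had no adjusted p in DESeq2. Fewer genes tested and fewer UMIs come with thinning by construction; for the other settings the cause was not tested.

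Log2 differences that changed sign against Areg 0 cells were as follows. With DESeq2, Egfr was 0.010. With at least 4 Areg UMIs, Egfr was 0.022, Il18r1 -0.054, Itgb4 -0.049 and Krt14 0.065. With no limit on Il1a or Lama3, Egfr was 0.58, Myd88 -0.31, Lama5 0.11, Itga2 0.41, Itgb6 0.33, Itgav 0.33, Krt14 0.52 and Fn1 0.17. With matched UMIs, Myd88 was -0.104 and Itga2 0.014. After thinning, Itgb4 was -0.057 and Itgav 0.16. With 1 tumour left out, Egfr ran from -0.18 to 0.048, Erbb2 -0.71 to 0.028, Adam17 -0.38 to 0.049, Lrig1 -0.68 to 0.013, Myd88 -0.22 to 0.31, Itgb4 -0.13 to 0.27, Itga5 -0.21 to 0.46 and Krt14 -0.12 to 0.31. Log2 differences that changed sign against gastrokine-high cells were as follows. Without Scrublet-marked cells, Adam10 was 0.0039. After thinning, Adam10 was 0.23 and Lama5 -0.068. With 1 tumour left out, Itgb5 ran from -0.795 to 0.093. Log2 differences that changed sign against Mmp7-high cells were as follows. After thinning, Adam10 was 0.062 and Lama5 -0.053. With 1 tumour left out, Adam17 ran from -0.15 to 0.498, Adam10 -0.35 to 0.0082, Errfi1 -0.26 to 0.51, Il1rn -0.055 to 0.78, Lama5 -0.032 to 0.16 and Krt14 -1.62 to 0.58. None of these passed the test in the reversed direction.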
